A study of Mus musculus with 5 samples.

Results

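Glucose use, the pentose phosphate pathway and the response to low oxygen were followed through 33 mouse genes, which were picked by symbol from 24419 rows of the gene table. All 33 were found, and 32 reached the mean level of 1 CPM (UMIs of a gene relative to its library total) needed for testing. The exception was Eno1, which was listed at 0 in all 5 libraries. The cells were bone marrow-derived macrophages (BMMs) from C57BL/6 mice (C57BL6/J in the series description), grown out of marrow in 50 ng/ml M-CSF for 5 days and activated with 100 ng/ml LPS. The activated cells were then cultured for 18 h with PBS (2 libraries, titled as no treatment) or with 100 ng/ml Sema3G, a secreted guidance protein of the semaphorin family (3 libraries), so M-CSF and LPS were common to both groups. Nothing in the labels says whether the libraries of a group came from separate animals or cultures, so p-values measure only the spread between these libraries, which may be technical. Adherent marrow cells were taken as macrophages, and 7 of the 8 macrophage markers with a row were at 5 CPM or more, with Mertk the exception. The lymphoid, dendritic, mast cell and erythroid markers summed to between 0 and 2.78 CPM in any library.

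Glycolysis splits glucose into pyruvate in the cytosol. Glucose enters through a transporter, is trapped by a hexokinase, is committed by phosphofructokinase, is cut by aldolase, and yields ATP in the payoff phase. Pyruvate is then burned in mitochondria or turned into lactate and exported, and the pentose phosphate pathway branches off at glucose phosphate to supply NADPH and ribose. HIF-1α, held down in oxygen by prolyl hydroxylases, drives many of these genes in low oxygen, and macrophages activated with LPS are known for high glycolysis and for HIF-1α in normal oxygen.

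HIF binds DNA at a short core, and the letters ACGTG and GCGTG were searched on both strands in the 250 bases before the annotated RefSeq start (GRCm38.p6). A palindrome CACGTG therefore counts as 2 matches. Windows were found for 32 of the 33 genes, all but Ndrg1, and 30 of these 32 (93.8%) held a match in at least 1 window, against 63.1% of the 7847 tested genes with a window and 41.5% of all 27025 genes with one. ACGTG alone was present for 18 of the 32 (56.2%), against 26.1% of the tested genes. The members had 1.34 windows per gene and the tested genes 1.28. The 2 genes without a match were Gpi1 and Tpi1. Some of the counted windows lie on annotated exons of their own gene. The G6pdx window was exonic in all 250 bases. Vegfa had matches only in its window 2, with 218 exonic bases, and none in its window 1. The 4 windows printed here, which hold no annotated exon, are those of the enzyme with the lowest log2 fold change (Aldoa), for the gene with the most matches among such windows (Ldha, lactate dehydrogenase) and for genes with positive log2 fold changes (Slc16a1 and P4ha1). Capitals mark the matched letters, and each window is printed 5′ to 3′ on the strand of its gene.
Aldoa, chr7:126799255-126799504, minus strand: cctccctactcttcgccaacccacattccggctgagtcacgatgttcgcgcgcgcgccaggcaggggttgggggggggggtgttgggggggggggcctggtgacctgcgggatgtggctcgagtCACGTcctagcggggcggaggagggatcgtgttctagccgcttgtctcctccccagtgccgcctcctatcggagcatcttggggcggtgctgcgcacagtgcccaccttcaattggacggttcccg
Ldha, chr7:46845554-46845803, plus strand: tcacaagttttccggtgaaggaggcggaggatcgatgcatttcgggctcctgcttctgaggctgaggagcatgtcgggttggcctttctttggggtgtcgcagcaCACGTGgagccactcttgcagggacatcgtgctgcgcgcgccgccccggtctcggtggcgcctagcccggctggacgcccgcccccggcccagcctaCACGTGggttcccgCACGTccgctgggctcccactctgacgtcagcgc
Slc16a1, chr3:104638414-104638663, plus strand: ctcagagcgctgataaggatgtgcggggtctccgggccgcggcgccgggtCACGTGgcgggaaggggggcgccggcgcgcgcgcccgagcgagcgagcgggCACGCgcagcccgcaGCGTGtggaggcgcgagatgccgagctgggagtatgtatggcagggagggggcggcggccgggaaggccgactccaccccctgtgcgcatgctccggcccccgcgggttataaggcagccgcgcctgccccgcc
P4ha1, chr10:59323046-59323295, plus strand: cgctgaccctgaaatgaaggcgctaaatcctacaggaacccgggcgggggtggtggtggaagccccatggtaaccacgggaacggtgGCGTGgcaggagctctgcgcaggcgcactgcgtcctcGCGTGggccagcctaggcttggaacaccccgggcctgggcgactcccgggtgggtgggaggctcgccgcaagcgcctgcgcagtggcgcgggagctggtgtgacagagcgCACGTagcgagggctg
The Ldha window held 5 matches, among them a palindrome 145 bases and another 48 bases before the start. Slc16a1 held 4 and P4ha1 held 3, while this Aldoa window held 1, at 126 bases before the start. Matches were present in the windows of genes with negative and with positive log2 fold changes alike, and a match is a description of letters, not of binding.

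The 5 libraries held 1798469 to 2215855 UMIs, of which 77.6% and 75.6% fell on listed genes with PBS and 71.3%, 67.1% and 65.9% with Sema3G, and 3 UMIs were worth 1.35 to 1.67 CPM. Because 3′-end sequencing counts 1 fragment per RNA whatever its length, CPM values of different genes are compared here without division by length. The ribosomal precursor Rn45s took 1.01% and 3.19% of the UMIs with PBS and 6.31%, 7.4% and 7.88% with Sema3G, and the median log2 fold change of all 10088 tested genes was -0.22 on the CPM scale. That median was -0.038 after TMM scaling and 0.042 with Rn45s-free scaling (CPM recomputed on listed genes alone, Rn45s excluded), and most changes of single member genes are therefore also given relative to it and under both scalings. In bulk RNA, fewer cells of a type and less RNA per cell cannot be told apart.

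With all 5 libraries compared by group alone, none of the 32 tested genes passed the test between Sema3G and PBS. A fit that also took the replicate number as a block did call some of them and is given in the closing section. With limma on log2(CPM + 1), 0 of 32 were called at an adjusted p below 0.05, where 1.8% of all tested genes were called. The count was also 0 of 32 with limma on TMM-scaled CPM (3.22% of all genes called), 0 of 32 with the edgeR quasi-likelihood test (3.01%) and 0 of the 30 that received an adjusted p from DESeq2 (3.92%). Leaving out 1 library gave 2 calls without PBS replicate 1 (Slc16a3 and Ero1l, both lower; 0.914% of all genes called, 0.0894% lower and 0.825% higher), 5 without Sema3G replicate 1 (Vegfa higher, and Aldoa, Tpi1, Pgd and Pkm lower; 8.5% of all genes, 5.49% lower and 3.01% higher) and 0 without any of the other 3. At an unadjusted p below 0.05, 11 genes were lower with Sema3G, or 34.4% beside 14.2% of all genes, and 1 was higher (Vegfa), beside 6.83% of all genes. The log2 fold change was below 0 for 27 of 32 genes beside 67.5% of all genes, and below the all-gene median for 18 of 32. The median over the 32 genes was -0.37 on the CPM scale, -0.17 after TMM scaling and -0.085 with Rn45s-free scaling. Without PBS replicate 2 it was -0.20 beside an all-gene median of -0.30, and 12 of 32 genes lay below the latter. Without PBS replicate 1 it was -0.40 beside -0.13, with 22 of 32 below. In 14 genes every Sema3G library was lower than either PBS library (43.8%, beside 26.5% of all genes), and in 1, P4ha1, all lay above (beside 11.9% of all genes). After TMM scaling these counts were 7 (21.9%, beside 15.9%) and 1 (beside 17.4%). The narrowest of the 32 confidence intervals spanned 0.763 log2 units and the median interval 0.893.

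**Figure D1:**
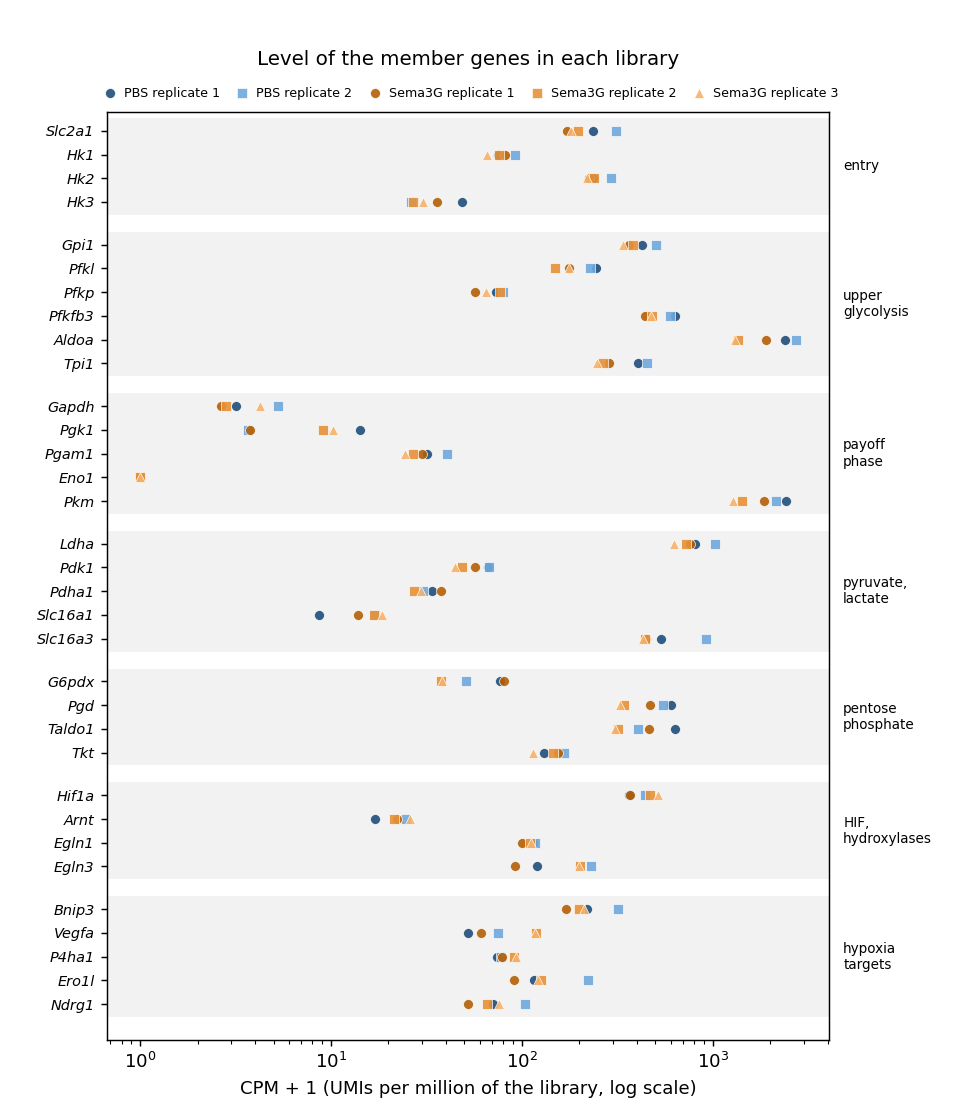
Level of each of the 33 genes in each library, as CPM + 1 on a log scale, grouped by pathway step, with 1 point per library (blue, PBS; orange, Sema3G). Aldoa and Pkm lie at the top, at 1271 CPM or more in every library, while Gapdh, Pgk1 and Eno1 lie at the bottom.

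Summed over all 33 genes, the level was 11230 and 12280 CPM with PBS and 9105, 8172 and 7769 CPM with Sema3G. Every Sema3G library was below both PBS libraries, and the ratio of the means was 0.71. The same ratio was 0.814 after TMM scaling and 0.866 with Rn45s-free scaling. The share of UMIs on listed genes was also lower in every Sema3G library. The 8 macrophage markers with a row summed to 9761 to 12570 CPM with PBS and 8860 to 9518 CPM with Sema3G, but to overlapping 9395 to 11020 and 8646 to 10410 after TMM scaling. By gene, every Sema3G library was lower in 2 of the 8 (1 after TMM scaling) and higher in 2 (also 2). The part of these values in the ratio was not tested. The genes took 1.12% and 1.23% of all UMIs with PBS and 0.777% to 0.91% with Sema3G. Aldoa and Pkm had the highest listed levels of the 33, although the levels of Gapdh and Eno1 are uncertain, as given below.

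Glucose entry was carried mostly by Slc2a1 and Hk2. Slc2a1 (chr4:119108711-119137983), the GLUT1 glucose transporter, was at 235 and 310.5 CPM with PBS and at 171, 196 and 179 CPM with Sema3G. All 3 Sema3G libraries were lower, with a log2 fold change of -0.57 ± 0.19 (SE) that did not pass the test (limma adjusted p = 0.118). It was -0.37 without PBS replicate 2, and the groups overlapped after TMM scaling. Its change was -0.34 relative to the all-gene median, -0.37 after TMM scaling and -0.28 with Rn45s-free scaling. Hk2 (chr6:82725025-82774454), the inducible hexokinase bound to mitochondria, had the highest mean of this step over all 5 libraries but not over the PBS libraries alone, where Slc2a1 was higher, and was at 236 and 292 CPM with PBS and 223, 237 and 218 CPM with Sema3G. Its groups overlapped, and the log2 fold change was -0.21 ± 0.18, ranging from -0.37 without PBS replicate 1 to -0.061 without PBS replicate 2. For Hk2 the value was 0.010 relative to the all-gene median, -0.012 after TMM scaling and 0.075 with Rn45s-free scaling. Hk1, the housekeeping form, ranged from 64.5 to 90.5 CPM, and Hk3, a hexokinase of myeloid cells, from 25.2 to 47.25 CPM, both with overlapping groups. Hk2 held 66.1% and 71.6% of all hexokinase UMIs with PBS (95% exact binomial intervals 62.3% to 69.7% and 68.3% to 74.8%) and 65.95%, 70.3% and 69.7% with Sema3G (lowest 62%, highest 73.6%). The make-up of the hexokinases thus overlapped between the groups, and Hkdc1 was listed at 0 throughout.

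From the isomerase to triose phosphate isomerase, all 6 genes had log2 fold changes below 0 on the CPM scale, although Pfkp turned to 0.065 with Rn45s-free scaling. In 5 of the 6 all Sema3G values were the lower ones, beside 26.5% of all genes, and in 4 of the 6 after TMM scaling, beside 15.9%. Aldoa (chr7:126795236-126799141), the aldolase that cuts fructose bisphosphate, was at 2377 and 2721 CPM with PBS and at 1893, 1349 and 1299 CPM with Sema3G. The Sema3G libraries were all lower, the first less so than the others. The log2 fold change of Aldoa was the lowest of the 32, at -0.77 ± 0.24 (95% confidence interval -1.28 to -0.26; limma adjusted p = 0.108). Without Sema3G replicate 1 it was -0.94 (adjusted p = 0.0135). For Aldoa the value with all libraries was -0.54 relative to the all-gene median, -0.57 after TMM scaling and -0.48 with Rn45s-free scaling. Tpi1 (chr6:124810586-124814296), which interconverts the triose phosphates, had 406 and 450.2 CPM with PBS and 285, 265 and 246 CPM with Sema3G. Its groups stood well apart, its log2 fold change was -0.69 ± 0.18, and its adjusted p in limma, 0.0615, was the lowest of the 32 genes. It fell below the threshold without Sema3G replicate 1, where the adjusted p was 0.0179. For Tpi1 the change came to -0.46 relative to the all-gene median, -0.49 after TMM scaling and -0.40 with Rn45s-free scaling. The end of Tpi1 overlaps that of Spsb2 on the opposite strand, which was at 35.2 and 49.3 CPM with PBS and 21.7 to 29.3 CPM with Sema3G. Whether the counting used strand is not stated in these sources.

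The control point of this stretch is phosphofructokinase. Pfkl (chr10:77986947-78009807), its liver form and the main one here, was at 244 and 225 CPM with PBS and at 175, 148 and 175 CPM with Sema3G. All Sema3G libraries were lower, with a log2 fold change of -0.50 ± 0.18 and an adjusted p of 0.139 in limma. The change of Pfkl was -0.28 relative to the all-gene median, -0.30 after TMM scaling and -0.21 with Rn45s-free scaling. Pfkfb3, which makes the sugar bisphosphate that activates phosphofructokinase, had 633 and 599 CPM with PBS and 438, 477 and 471 CPM with Sema3G. The groups did not overlap, and the log2 fold change was -0.42 ± 0.19 (limma adjusted p = 0.212). Pfkfb3 stood at -0.19 relative to the all-gene median, -0.21 after TMM scaling and -0.12 with Rn45s-free scaling. Gpi1, the isomerase, lay at 426 and 504 CPM with PBS and 361, 379.5 and 339 CPM with Sema3G, groups that separated on the CPM scale and overlapped after TMM scaling. Within the phosphofructokinases, Pfkl took 72.1% to 75.4% of the UMIs with PBS and 64.6% to 74.4% with Sema3G, and Pfkp took most of the rest.

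The payoff phase held both the second highest listed level of the 33 genes and the lowest, that of Eno1, which is uncertain. Pkm (chr9:59656368-59679375), the pyruvate kinase that closes glycolysis, was at 2408 and 2127 CPM with PBS and at 1859.9, 1427 and 1271 CPM with Sema3G. The Sema3G libraries were all lower, also after TMM scaling, with a log2 fold change of -0.59 ± 0.24 (limma adjusted p = 0.179; 0.0316 without Sema3G replicate 1). Pkm stood at -0.37 relative to the all-gene median, -0.39 after TMM scaling and -0.30 with Rn45s-free scaling. Pgam1, the phosphoglycerate mutase, had 30.8 and 39.6 CPM with PBS and 28.9, 25.7 and 23.5 CPM with Sema3G. Those groups were close but did not overlap on the CPM scale.

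Gapdh, Pgk1 and Eno1, which encode abundant enzymes in most cells, were almost unseen in the table. Gapdh was listed at 1.67 to 4.28 CPM, from 3 to 8 UMIs a library, and Eno1 at 0. In the GENCODE M21 transcripts, 69.9% of the 226 stretches of 75 bases in the last 300 bases of Gapdh occurred exactly in other genes (46 of them, 44 being pseudogenes), and 88.9% of those of Eno1 occurred in Eno1b. None of the other 31 genes shared such a stretch at the end of its longest coding transcript, the only end searched in this way. Eno1b itself was at 0 to 0.922 CPM. The levels of Gapdh and Eno1 are therefore uncertain, and the part of shared reads in them was not tested. Pgk1 (chrX:106187100-106203699), which shares no such stretch, was also low, at 13.2 and 2.68 CPM with PBS and 2.78, 8.12 and 9.22 CPM with Sema3G. Its 5 values, from 5 to 24 UMIs, did not sort by group. Near copies of at least 95% identity were found for 8 of the 33 genes, Aldoa, Tpi1, Pkm, Ldha, Gpi1 and Bnip3 among them. The copy of Aldoa with a row, Aldoart1, reached at most 2.26 CPM, while no copy of the other 5 was matched to a row, so reads shared with those copies could not be checked.

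**Figure D2:**
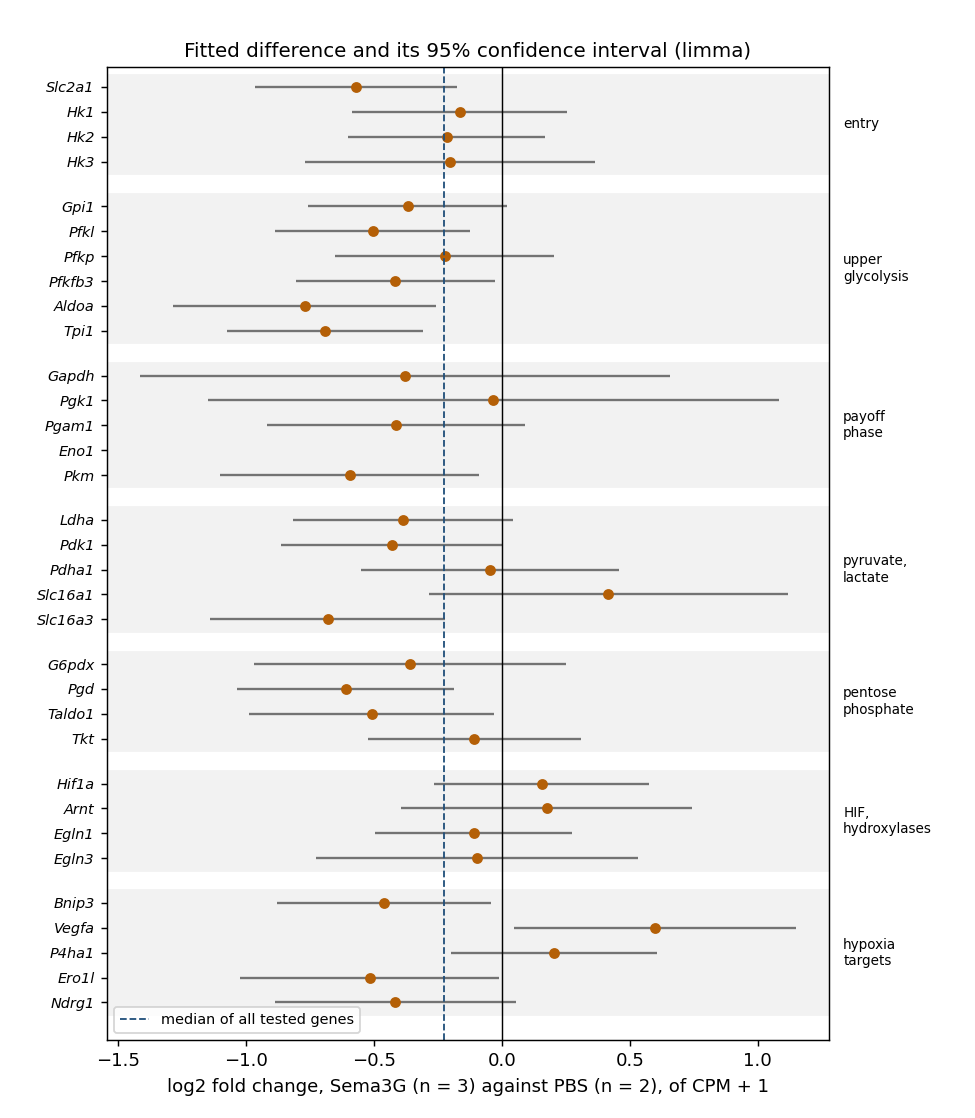
Log2 fold change of CPM + 1, Sema3G against PBS, for the 32 tested genes by pathway step. Points are limma estimates, bars their 95% confidence intervals, and the dashed line is the median of all 10088 tested genes at -0.22. Aldoa lies lowest (-0.77) and Vegfa highest (0.60).

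At the fate of pyruvate, Ldha (chr7:46847082-46855626), the lactate dehydrogenase subunit that favours lactate, was at 808 and 1024 CPM with PBS and at 756, 718 and 623 CPM with Sema3G. All Sema3G libraries were lower on the CPM scale and overlapped with PBS after TMM scaling, with a log2 fold change of -0.38 ± 0.20 (limma adjusted p = 0.286) that was -0.21 without PBS replicate 2. Ldha stood at -0.16 relative to the all-gene median, -0.18 after TMM scaling and -0.093 with Rn45s-free scaling. Ldha held 98.7% to 99.7% of lactate dehydrogenase UMIs in every library. Slc16a3 (chr11:120949081-120960868), the MCT4 lactate exporter, had 534 and 919.7 CPM with PBS and 446, 438 and 428 CPM with Sema3G. The Sema3G libraries were close to each other and below both PBS libraries, which themselves differed by 1.72 times (95% counting interval 1.59 to 1.87). The log2 fold change was -0.68 ± 0.22 with an adjusted p of 0.111 in limma, and the groups overlapped after TMM scaling. The value turned on the PBS libraries, being -1.07 without PBS replicate 1 (adjusted p = 0.0242) and -0.29 without PBS replicate 2 (adjusted p = 0.447). Slc16a3 was at -0.45 relative to the all-gene median, -0.48 after TMM scaling and -0.39 with Rn45s-free scaling.

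The related MCT1 transporter gene Slc16a1 (chr3:104638668-104658462) was at 7.69 and 16.1 CPM with PBS and at 12.8, 15.8 and 17.5 CPM with Sema3G. PBS replicate 2 lay among the Sema3G libraries, and the log2 fold change of 0.42 ± 0.33 (limma adjusted p = 0.474) was -0.070 without PBS replicate 1. Slc16a1 was at 0.64 relative to the all-gene median, 0.60 after TMM scaling and 0.70 with Rn45s-free scaling. As a share of the UMIs of Slc16a1, Slc16a3 and Slc16a7, which no scaling affects, Slc16a1 took 1.41% and 1.71% with PBS and 2.76%, 3.45% and 3.91% with Sema3G. The groups did not overlap in this share, but the exact intervals of the nearest pair did (1.16% to 2.44% for PBS replicate 2, 1.76% to 4.11% for Sema3G replicate 1), and it rested on 14 to 38 UMIs. Pdk1, the kinase that shuts pyruvate dehydrogenase, was at 65.4 and 65.8 CPM with PBS and at 55.6, 47.4 and 43.3 CPM with Sema3G. Those libraries did not overlap, also after TMM scaling, and the log2 fold change was -0.43 ± 0.21 (limma adjusted p = 0.242). Pdk1 stood at -0.20 relative to the all-gene median, -0.23 after TMM scaling and -0.14 with Rn45s-free scaling. Pdha1, a subunit of that dehydrogenase, ranged from 26.2 to 36.7 CPM with overlapping groups.

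**Figure D3:**
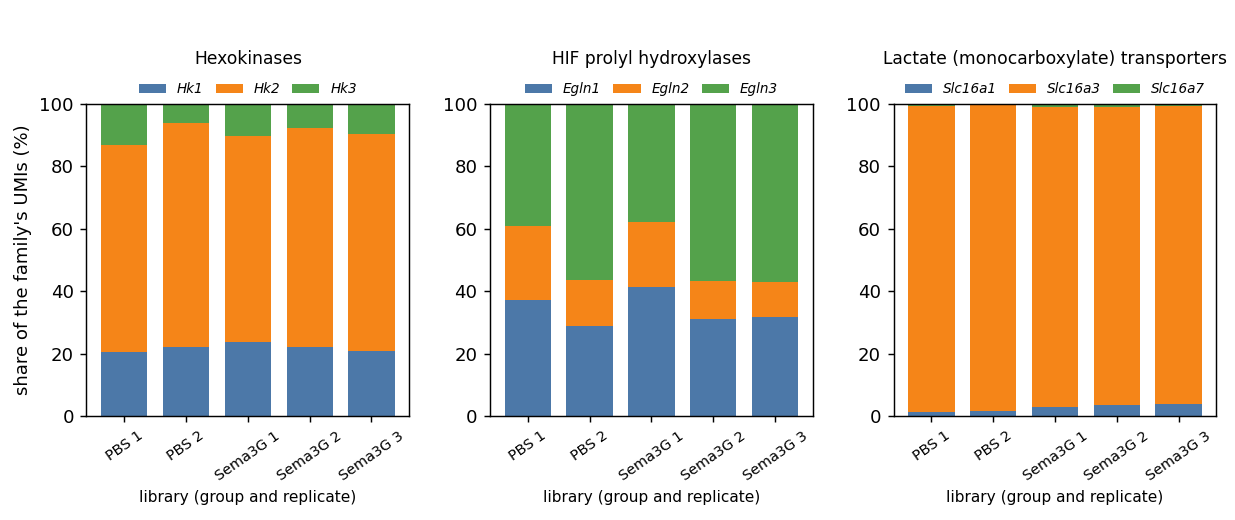
Share of the UMIs of 3 gene families held by each gene, in percent, with 1 bar per library. Hk2 holds 65.95% to 71.6% of the hexokinase UMIs in all 5 libraries. Egln3 holds 39.1% and 56.3% of the prolyl hydroxylase UMIs with PBS and 38.0%, 56.8% and 57.1% with Sema3G, and the thin Slc16a1 share is 1.41% to 3.91%.

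In the pentose phosphate pathway, the NADPH-making step of Pgd and the transaldolase Taldo1 were the most abundant. Pgd (chr4:149149991-149166707), phosphogluconate dehydrogenase, was at 599 and 544 CPM with PBS and at 469.8, 343 and 324 CPM with Sema3G. Its groups did not overlap on either scale, and its log2 fold change was -0.61 ± 0.20 (limma adjusted p = 0.118; 0.0153 without Sema3G replicate 1). Pgd stood at -0.385 relative to the all-gene median, -0.41 after TMM scaling and -0.32 with Rn45s-free scaling. Taldo1, which recycles pentoses to glycolysis, had 634 and 402 CPM with PBS and 459, 319 and 305 CPM with Sema3G. One Sema3G library lay between the PBS libraries, and the log2 fold change of -0.51 ± 0.23 had an adjusted p of 0.213 in limma. It was -0.18 without PBS replicate 1 and -0.84 without PBS replicate 2. Taldo1 stood at -0.28 relative to the all-gene median, -0.30 after TMM scaling and -0.22 with Rn45s-free scaling. G6pdx, the entry enzyme of the pathway, varied more within the groups than between them, at 75.8 and 49.8 CPM with PBS and 79.5, 36.6 and 37.3 CPM with Sema3G. Tkt, transketolase, ranged from 114 to 166 CPM with a log2 fold change of -0.11 on the CPM scale and 0.096 after TMM scaling.

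Among HIF and its hydroxylases, all 4 genes lay above the all-gene median of the log2 fold changes with all libraries. Egln3 fell below it without PBS replicate 1 (-0.57 beside -0.13), and also without Sema3G replicate 2 or Sema3G replicate 3. The summed level of the 4 genes had a ratio of Sema3G to PBS of 1.05 on the CPM scale. Hif1a (chr12:73907904-73947530), the oxygen-regulated subunit, was at 361 and 440.0 CPM with PBS and at 366, 468 and 512 CPM with Sema3G. The groups overlapped, and its log2 fold change was 0.16 ± 0.20 (95% confidence interval -0.26 to 0.58; limma adjusted p = 0.672). Leaving out 1 library gave 0.014 (without PBS replicate 1) to 0.30 (without PBS replicate 2), with 0.054 without Sema3G replicate 3. Hif1a stood at 0.38 relative to the all-gene median, 0.36 after TMM scaling and 0.45 with Rn45s-free scaling. Its partner Arnt ranged from 15.9 to 24.9 CPM and overlapped as well. Egln1, the main oxygen sensor of HIF, was at 113 and 117 CPM with PBS and 99.5, 109.7 and 111 CPM with Sema3G, groups that separated narrowly on the CPM scale and overlapped after TMM scaling, where its log2 fold change turned from -0.11 to 0.093. Egln3, a prolyl hydroxylase that HIF itself induces, was at 119 and 229 CPM with PBS and at 91.2, 200.8 and 199 CPM with Sema3G. Each group thus held 1 low library and at least 1 high one, and the log2 fold change was -0.098 on the CPM scale and 0.10 after TMM scaling.

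The 5 hypoxia targets had log2 fold changes of both signs. Vegfa (chr17:46016993-46032369), the vascular growth factor gene, had the highest log2 fold change of the 32 genes, with 51.1 and 73.9 CPM with PBS and 60.1, 117 and 117 CPM with Sema3G. Sema3G replicate 1 lay between the PBS libraries and the others lay above both. The log2 fold change was 0.60 ± 0.26 with an adjusted p of 0.207 in limma, and leaving out 1 library moved it both ways, to 0.91 without Sema3G replicate 1 (adjusted p = 0.0188), 0.34 without PBS replicate 1 (adjusted p = 0.615) and 0.44 without Sema3G replicate 2 or without Sema3G replicate 3. Vegfa stood at 0.82 relative to the all-gene median, 0.80 after TMM scaling and 0.89 with Rn45s-free scaling. P4ha1 (chr10:59323296-59373304), a catalytic subunit of collagen prolyl hydroxylase, was at 73.1 and 76.6 CPM with PBS and at 77.3, 90.3 and 92.2 CPM with Sema3G. All Sema3G libraries lay above both PBS libraries, the first by little, and the log2 fold change was 0.20 ± 0.19 (limma adjusted p = 0.546). P4ha1 stood at 0.43 relative to the all-gene median, 0.41 after TMM scaling and 0.49 with Rn45s-free scaling.

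The other 3 hypoxia targets had negative log2 fold changes. Bnip3 (chr7:138890836-138909506), a receptor for the removal of mitochondria and the most abundant of the 5, had 219 and 318 CPM with PBS and 169, 199 and 209 CPM with Sema3G. Its groups did not overlap on the CPM scale but did after TMM scaling, with a log2 fold change of -0.46 ± 0.20 (limma adjusted p = 0.201) that was -0.73 without PBS replicate 1 and -0.19 without PBS replicate 2. Bnip3 stood at -0.24 relative to the all-gene median, -0.26 after TMM scaling and -0.17 with Rn45s-free scaling. Ero1l, an oxidase of the endoplasmic reticulum, was at 114 and 219 CPM with PBS and at 90.1, 125 and 119.9 CPM with Sema3G. PBS replicate 2 stood above the other 4 libraries, and the log2 fold change was -0.52 ± 0.24 with all libraries (limma adjusted p = 0.229) but -0.048 without that library (adjusted p = 0.929) and -0.98 without PBS replicate 1 (adjusted p = 0.0487). Ero1l stood at -0.29 relative to the all-gene median, -0.31 after TMM scaling and -0.23 with Rn45s-free scaling. Ndrg1, a stress-response gene, had the same highest and lowest library as Ero1l, at 69.2 and 102 CPM with PBS and 51.2, 65.0 and 74.7 CPM with Sema3G, and its log2 fold change of -0.42 was -0.14 without PBS replicate 2 and -0.69 without PBS replicate 1. Ndrg1 stood at -0.19 relative to the all-gene median, -0.21 after TMM scaling and -0.13 with Rn45s-free scaling.

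The hypoxia genes, like genes of other steps, also differed between libraries of the same group. All 5 hypoxia targets and all 4 genes of HIF and its hydroxylases were at a higher level in the second PBS library than in the first, where 39.2% of all tested genes were higher, with median log2 ratios of 0.53 and 0.41 beside -0.12 over all genes. The ratio between these libraries was 1.93 for Egln3 (95% counting interval 1.63 to 2.28) and 1.92 for Ero1l (1.62 to 2.28). For Bnip3 it was 1.45 (1.28 to 1.65). The intervals included 1 for Egln1 (0.848 to 1.25), P4ha1 (0.821 to 1.34) and Arnt (0.904 to 2.45). Slc16a3, at 1.72 (1.59 to 1.87), lay in the same range. Taldo1, at 0.634 (0.578 to 0.696), and G6pdx, at 0.657 (0.499 to 0.86), lay on the other side, but Tkt was at 1.27 (1.07 to 1.52). Of all 32 tested members, 23 were higher in PBS replicate 2. These included 4 of 5 in pyruvate and lactate (median log2 ratio 0.34), 3 of 4 in glucose entry (0.30) and 1 of 4 in the pentose phosphate pathway (-0.37). In the Sema3G group, replicates 2 and 3 were both above replicate 1 in 5 of 5 hypoxia targets, beside 27.2% of all genes, and both below it in 4 of 4 pentose phosphate genes, beside 50.2% of all genes. Other genes of the same pathways did not share this order throughout. Of the other tested hypoxia targets, 10 of 15 were higher in PBS replicate 2 and 8 of 15 were higher in both later Sema3G replicates than in replicate 1. Of the other tested HIF-step genes, 0 of 4 were higher in PBS replicate 2 (median log2 ratio -0.35), and 3 of 4 were lower in both Sema3G replicates 2 and 3 than in replicate 1. The share of Egln3 among the prolyl hydroxylase UMIs was 39.1% in PBS replicate 1 and 38.0% in Sema3G replicate 1 (exact intervals 35% to 43.3% and 33.4% to 42.7%), and 56.3% to 57.1% in the other 3 libraries (intervals from 52.7% to 60.6%). The share therefore divided the libraries without regard to Sema3G. Rn45s moved along with this order within each group, being lowest in the first replicate of each, and its part in these values was not tested. Intervals from counts cover counting error only.

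**Figure D4:**
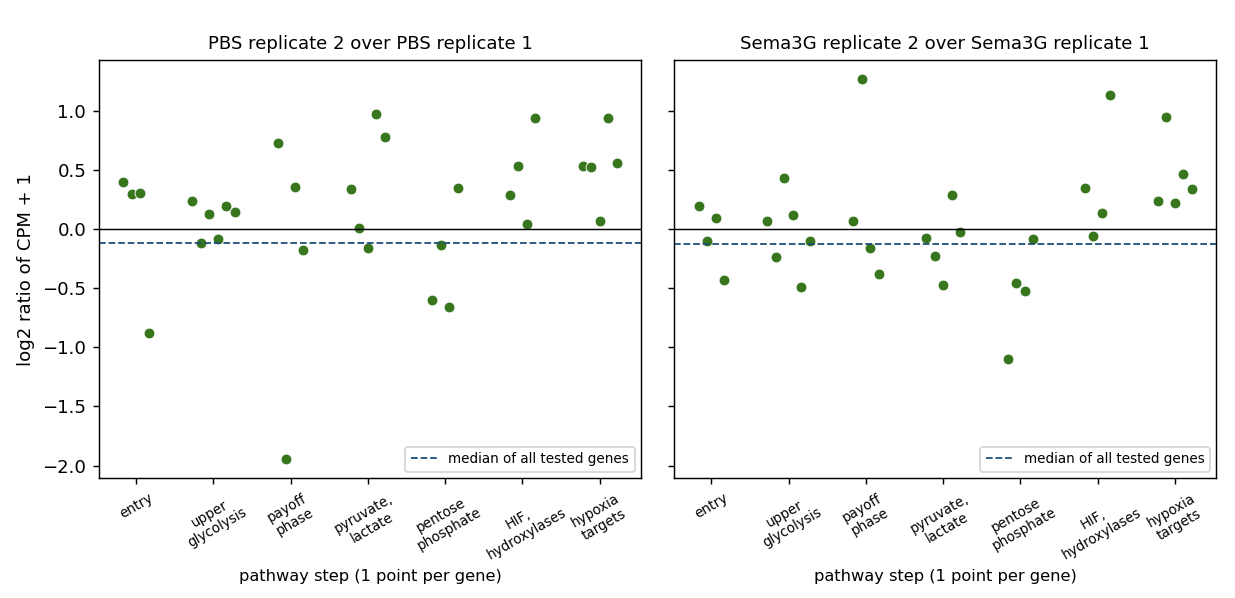
Log2 ratio of CPM + 1 between libraries of the same group, with 1 point per tested gene by pathway step. The left panel shows PBS replicate 2 over replicate 1 and the right panel Sema3G replicate 2 over replicate 1, and dashed lines mark the medians of all tested genes (-0.12 and -0.13). All 5 hypoxia targets lie above 0 in both panels, and all 4 pentose phosphate genes lie below 0 in the right panel.

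The wider pathways were read from 66 other genes, of which 46 were tested and 12 were listed at 0 in every library. None of the 46 was called by limma, on CPM or on TMM-scaled CPM, or by edgeR, and none of the 29 with an adjusted p in DESeq2 was, while 7 were lower and 0 higher at an unadjusted p below 0.05 in limma, where 14.2% of all genes were lower and 6.83% higher. The groups did not overlap in 17 of the 46, with Sema3G lower in 16 (beside 26.5% of all genes) and higher in 1 (beside 11.9%), and after TMM scaling these counts were 10 (beside 15.9%) and 4 (beside 17.4%). The median log2 fold change was -0.29, or -0.063 relative to all genes. Pgls, the lactonase between G6pdx and Pgd, was the most abundant of the other pentose phosphate genes, at 165 and 151 CPM with PBS and 132, 99.3 and 89.9 CPM with Sema3G. It had a log2 fold change of -0.57 ± 0.20 and an adjusted p of 0.131 in limma, and its library order was that of Pgd. Bsg, the chaperone of the lactate transporters, was at 107 and 169 CPM with PBS and 107 to 125 CPM with Sema3G, with overlapping groups. Aldoc, the minor aldolase, lay at 77.5 and 87.8 CPM with PBS and 64.1 to 66.2 CPM with Sema3G. Hilpda, a lipid droplet gene induced by HIF, was at 98.3 and 131 CPM with PBS and 60.1, 113 and 127 CPM with Sema3G, with Sema3G replicate 1 the lowest library, as for Egln3.

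Of the other genes of the HIF step, 4 were tested, and all Sema3G libraries were the lower ones in 2 of them (Egln2 and Vhl), on CPM (beside 26.5% of all genes) and after TMM scaling (beside 15.9%). Hif1an, whose product also restrains HIF, had overlapping groups and a log2 fold change of 0.0003, and Epas1, at 0.535 to 1.67 CPM from 1 to 3 UMIs a library, overlapped on CPM. Egln2, a prolyl hydroxylase and the most abundant of the 4, had 72.0 and 60.5 CPM with PBS and 49.5, 43.3 and 38.7 CPM with Sema3G, with a log2 fold change of -0.59 ± 0.21 (limma adjusted p = 0.139), or -0.36 relative to the all-gene median. Vhl, which tags hydroxylated HIF for destruction, had 35.7 and 34.8 CPM with PBS and 18.9, 23.5 and 15.7 CPM with Sema3G. It was named after its values were seen, as its log2 fold change of -0.85 ± 0.26 and adjusted p of 0.0930 were the lowest of the 46 genes. Relative to the all-gene median Vhl was at -0.63, and neither gene passed the test. Slc2a6, the most abundant other glucose transporter, lay at 21.98 and 20.3 CPM with PBS and 11.99 to 16.7 CPM with Sema3G, and the enolases Eno2 and Eno3 stayed at or below 8.90 CPM.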

How the data were processed

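RNA-seq was performed on 5 BMM libraries, 2 with PBS and 3 with Sema3G. Total RNA was turned into 3′-end libraries with molecular identifiers (UMIs), the reads were mapped to mm10, and UMIs were counted per gene by the authors in Strand NGS. The submitters' processing notes name edgeR 3.12. The authors deposited 1 table of CPM values with 24419 rows, together with p-values, q-values and a ranking of their own comparison, which were not used. The CPM steps gave whole UMI counts for 100% of values within 0.01, and library totals follow from them. No other column of sample values was left unused (0).

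Groups were taken from the sample labels. The main test was limma 3.58.1 with a trend on log2(CPM + 1), a pseudocount of 1, in R 4.3.3, over the 10088 genes that averaged 1 CPM or more, and p-values were adjusted by the Benjamini-Hochberg method over all of them with a call at 0.05. On this scale, log2(value + pseudocount), differences of low genes come out too small. Alternatives on the recovered UMI counts were the edgeR 4.0.16 quasi-likelihood test and DESeq2 1.42.0, and each test was checked on simulated data. A gene that missed the threshold is not shown to have had equal levels. TMM-scaled CPM, Rn45s-free scaling (CPM on listed genes alone, Rn45s excluded), other pseudocounts and filters, the replicate number as a block and leaving out each library were the further alternatives. Near copies were searched with BLAST 2.17.0 in GENCODE M21 transcripts, read length 75 bases, and promoter windows came from RefSeq (GRCm38.p6). For 36 of 42 windows checked, bases shortly after the start, read on the stated strand, were found near the beginning of an annotated transcript of the gene.

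The members and lists were chosen with earlier results of these data known. All 33 members are named, with values in every library for the 3 highest and 3 lowest log2 fold changes and for the most abundant gene of each step. Of the other pathway genes the most abundant of each step are named, and genes named after their values were seen are marked. Of the marker symbols 2 had no row, Emr1 (the older symbol of Adgre1) and Ly6g, and the neutrophil and stromal lists summed to 103 to 169 CPM, nearly all S100a8, and 10.7 to 28.0 CPM. Of the 33 members, 6 overlap a gene on the opposite strand at their end and 0 on the same strand. Limits from low counts cover counting error only.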

Additional observations from a re-analysis of the deposited data

How the results depend on the processing

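Depth gave 3 UMIs a worth of 1.35 to 1.67 CPM, so Gapdh and Pgk1 rest on few UMIs. Of the 32 genes under 14 alternatives, 392 values kept their direction and side of the threshold, 15 passed the threshold and 40 changed sign, all of the last being uncalled. The cause of the shifts was not tested, apart from fewer libraries or fewer or more genes where the alternative itself sets that.

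Number of all genes called was 182 in the main test, of which 160 were higher. It was 108 without a filter, 325 with TMM-scaled CPM (322 higher), 498 with Rn45s-free scaling (496 higher), 304 with edgeR (301 higher) and 26 to 856 when 1 library was left out (26 without Sema3G replicate 2, 28 without Sema3G replicate 3, 92 without PBS replicate 1, and 856 without Sema3G replicate 1, of which 303 were higher and 553 lower). The number of member genes called was 0 in the main test and 0 to 5 when 1 library was left out. It was 2 of 32 without PBS replicate 1 (Slc16a3 and Ero1l; 0.914% of all genes called) and 5 of 32 without Sema3G replicate 1 (8.5% of all genes called; Vegfa higher, and Aldoa, Tpi1, Pgd and Pkm lower), where Pgls was called as well.

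The same replicate numbers occur in both groups, but the labels do not say that they pair the libraries. Deviations of same-numbered libraries from their group means correlated at 0.17 for replicate 1 and 0.11 for replicate 2. The deviations of the PBS libraries mirror each other, so both values use the same PBS difference and are not separate measures. With the replicate number as a block, a fit with 1 residual degree of freedom, 573 genes were called, 5.68% of all (298 higher, and 275 or 2.73% lower). Under the block 8 member genes were called, all lower (Aldoa, Slc16a3, Tpi1, Pgd, Slc2a1, Ero1l, Pfkl and Bnip3), while Tkt turned to 0.023. Replicate 3 occurs only with Sema3G, so the block took up that library and the comparison rested on replicates 1 and 2. Log2 fold changes therefore equalled those without Sema3G replicate 3, such as -0.67 for Aldoa. Without that library and without the block, 0 member genes were called.

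Changes of sign in the log2 fold change were as follows. With TMM-scaled CPM, Hk1 was 0.037, Pgk1 0.15, Pdha1 0.15, Tkt 0.096, Egln1 0.093 and Egln3 0.10. With Rn45s-free scaling, Hk1 was 0.12, Hk2 0.075, Hk3 0.080, Pfkp 0.065, Pgk1 0.24, Pdha1 0.24, Tkt 0.18, Egln1 0.18 and Egln3 0.19. With edgeR, Hk1 was 0.026, Pgk1 0.042, Pdha1 0.16, Tkt 0.084, Egln1 0.10 and Egln3 0.12. With DESeq2, Hk1 was 0.032, Pfkp 0.0029, Pgk1 0.058, Pdha1 0.17, Tkt 0.090, Egln1 0.11 and Egln3 0.13. When 1 library was left out, Hk3 ran from -0.65 to 0.24, Pgk1 ran from -1.01 to 0.94, Pdha1 ran from -0.18 to 0.054, Slc16a1 ran from -0.070 to 0.90, Tkt ran from -0.28 to 0.067, Arnt ran from -0.093 to 0.44 and Egln3 ran from -0.57 to 0.37.

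The log2 ratio of summed CPM moved by more than the spread between replicates in some steps. With TMM-scaled CPM it was -0.16 for glucose entry and -0.43 for the isomerase to triose phosphate stretch. With Rn45s-free scaling it was -0.069 for glucose entry, -0.34 for that stretch, -0.29 for the payoff phase, -0.23 for pyruvate and lactate, -0.20 for the pentose phosphate pathway and 0.36 for HIF and its hydroxylases. When 1 library was left out, glucose entry and hexokinases ran from -0.49 to -0.21, pyruvate and lactate ran from -0.74 to -0.23 and hypoxia targets ran from -0.52 to 0.068. The difference in family share between Sema3G and PBS ran from -2.96 to 2.56 percentage points for Hk2 and from -5.73 to 11.5 for Egln3, and kept its sign for Slc16a1, Slc16a3 and Aldoc.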
